A study of Triticum aestivum with 18 samples.

Results

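Chitinase, thaumatin-domain and wheatwin genes were followed in RNA-seq libraries from the roots and the third leaf of wheat seedlings (Triticum aestivum, cultivar Jimai 22, a variety described as NaCl-tolerant). The genes were all annotated rows (those with a TraesCS identifier) whose description or domain entry held the word chitinase, thaumatin, wheatwin or barwin, whatever their expression. The rule found 135 of the 134610 genes in the table: 8 chitinase genes and 4 wheatwin genes by their descriptions, and 123 thaumatin genes by a thaumatin domain entry, of which 3 also had a description. No chitinase or wheatwin gene was found by a domain entry, so genes of these families without a description may be missing. Contrasts between the families carry this difference in how they were gathered, and its part was not tested. Of the 135 genes, 15 had no count in any library (1 chitinase, 13 thaumatin and 1 wheatwin gene), and 88 passed the filter on low counts in at least 1 comparison (7 chitinase, 78 thaumatin and 3 wheatwin genes). A member that passed the filter only because 1 group was high had to differ between groups, so the members tested do not stand for all members.

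The 18 libraries fell into 6 groups of 3. In each tissue there were seedlings given 5 mM 3-MA and 150 mM NaCl, seedlings given 150 mM NaCl alone, and control seedlings in nutrient solution without either agent. 3-MA (3-methyladenine) inhibits phosphatidylinositol kinases and is widely used to block autophagy. NaCl followed 3-MA after 5 h, and samples were collected on day 4. Each library was made from a pool of 10 roots or of the third leaf of 10 seedlings. No group with 3-MA alone was analysed here, so the values with 3-MA describe its addition under salt. The groups are called 3-MA + NaCl, NaCl and control roots or leaves.

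All 3 families belong to the pathogenesis-related proteins, which plants make in response to infection and which many stresses and hormones also induce. Chitinases cut chitin, the polymer of fungal cell walls and insect cuticle, which plants themselves lack. Thaumatin-like proteins are named after a sweet fruit protein. Some of them damage fungal membranes or bind cell wall glucans, and osmotin, a tobacco member, was found in salt-adapted cells. Wheatwins are small wheat proteins with a barwin domain, first described in barley grain, and have antifungal and ribonuclease activity.

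The libraries held 27156078 to 33150906 counts, with a median of 30324867.5. Libraries of a group correlated with each other at r = 0.959 to 0.992 across genes (log2(CPM + 1)). As a check of the labelled tissues, 116 genes for chlorophyll-binding proteins and the small Rubisco subunit summed to 16.99 to 552.6 CPM (counts scaled to the library total and its TMM factor, edgeR's correction for libraries of different make-up) in the 9 root libraries and to 16272 to 202873 CPM in the 9 leaf libraries. Within leaves they summed to 16272 to 27822 CPM with 3-MA + NaCl, 37104 to 44310 CPM with NaCl and 90203 to 202873 CPM in controls, and their part in the leaf results was not tested. A root list of 153 genes for CASP-like, Casparian strip and nitrate transport proteins summed to 574 to 762 CPM in roots and was also present in leaves at 362 to 495 CPM, so it does not mark roots alone. Fewer cells of a type and less RNA per cell cannot be told apart in such tissue samples. Wheat carries 3 related genomes, A, B and D, whose gene copies are very similar, and how reads matching several copies were counted is not given in the sources used here, so values of single copies are uncertain to that extent.

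Single leaf libraries stood apart in these genes, and this bears on every leaf result. Among genes with a group mean of at least 1 CPM, 13 of 38 members (34.2%) were at least 4 times as high in control leaf replicate 2 as in either other control leaf library, against 277 of 53984 genes overall (0.513%). Likewise, 15 of 46 members (32.6%) were at least 4 times as high in 3-MA + NaCl leaf replicate 3 as in either other library of its group, against 145 of 54213 genes overall (0.267%). In the 9 root libraries this held for 1 member in 1 library. That was 1 of 57 members (1.75%) in 3-MA + NaCl root replicate 3, against 185 of 58206 genes overall (0.318%). In NaCl leaves it held for 2 of 41 members (4.88%) in replicate 2, against 128 of 54128 genes overall (0.236%). Other defence lists shared this in part. A list of 21 genes for pathogenesis-related protein 1 summed to 80.4, 67.9 and 395 CPM in the 3-MA + NaCl leaf libraries, 11.3, 9.95 and 3.66 CPM in NaCl leaves and 0.526, 28.9 and 0.207 CPM in control leaves, highest in the same 2 libraries. A list of 11 glucanase genes summed to 151, 89.9 and 549.7 CPM in 3-MA + NaCl leaves and to 156, 277 and 194 CPM in control leaves. Xylanase inhibitors did not stand apart to this degree in 3-MA + NaCl leaves, with sums of 48.2, 34.1 and 50.2 CPM. In control leaves they summed to 18.2, 38.9 and 20.8 CPM, again highest in replicate 2. Defensins and thionins summed to at most 1.35 CPM in any leaf library. The thresholds of 4 times and 1 CPM were chosen after the values were seen, and what set these 2 libraries apart was not tested.

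Summed over each family, mean levels ran in the order 3-MA + NaCl, NaCl, control in both tissues, with families differing in the size of the steps. The wheatwin genes summed to 192 ± 32.5 CPM in 3-MA + NaCl roots, 53.9 ± 17.99 CPM in NaCl roots and 0.0340 ± 0.0358 CPM in control roots (SD, n = 3 each). They summed to 382 ± 299 CPM in 3-MA + NaCl leaves, 29.8 ± 17.4 CPM in NaCl leaves and 11.5 ± 14.6 CPM in control leaves. The chitinases summed to 454 ± 42.5 CPM in 3-MA + NaCl roots, 191 ± 56.6 CPM in NaCl roots and 42.4 ± 4.43 CPM in control roots. Their sums were 546 ± 427 CPM in 3-MA + NaCl leaves, 135 ± 29.4 CPM in NaCl leaves and 121 ± 31.2 CPM in control leaves. The thaumatin genes differed least between groups as a sum, with 766 ± 93.4 CPM in 3-MA + NaCl roots, 758 ± 200 CPM in NaCl roots and 548 ± 34.4 CPM in control roots, and with 642 ± 450 CPM in 3-MA + NaCl leaves, 396 ± 27.7 CPM in NaCl leaves and 327 ± 82.5 CPM in control leaves. No root library of one group overlapped another for wheatwin or chitinase sums, whereas the thaumatin sums of NaCl roots overlapped those of both other root groups.

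**Figure D1:**
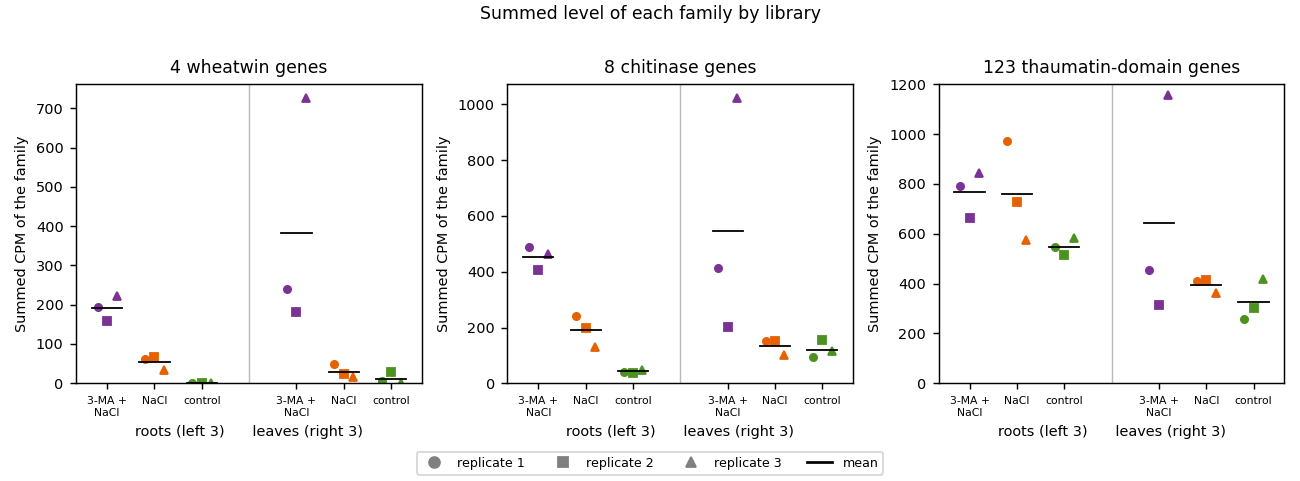
Summed CPM (y axis, linear) of the wheatwin, chitinase and thaumatin-domain genes in each of the 18 libraries, with roots in the left part and leaves in the right part of each panel. Points are libraries (shape gives the replicate number) and bars are group means. Replicate 3 of the 3-MA + NaCl leaves lies far above its group for all 3 families (725, 1024 and 1156 CPM).

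Of the 4 wheatwin genes, 2 carried nearly all counts of their family. Wheatwin-1 (PR4A, TraesCS3A02G517100) lies on chromosome 3A, 734151921 to 734152833, and Wheatwin-2 (PR4B, TraesCS3D02G524700) on chromosome 3D, 604447774 to 604448529, in the coordinates of the files (Chinese Spring, IWGSC). Wheatwin-1 had 124, 97.9 and 140.5 CPM in 3-MA + NaCl roots, 32.8, 39.4 and 19.3 CPM in NaCl roots and 0.0305, 0.0357 and 0 CPM in control roots. Its control roots held 2 reads in all, against 3403 with NaCl, a ratio of 1340 after scaling to the libraries' totals and TMM factors, with a 95% counting interval of 371 to 11067. The gene was thus at the limit of detection in control roots, and every NaCl root library was far above it. Wheatwin-2 followed it closely, with 69.6, 59.5 and 80.9 CPM in 3-MA + NaCl roots, 29.8, 25.8 and 13.5 CPM in NaCl roots and 0, 0.0357 and 0 CPM in control roots, where 1 read was found against 2582 with NaCl (ratio 2033, interval 365 to 80327). Intervals of this kind cover counting error only.

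Salt raised both wheatwins in roots, and 3-MA raised them further. Changes were tested with edgeR's quasi-likelihood test, with Benjamini-Hochberg adjustment over all genes tested, and a gene was called at an adjusted p of 0.05 or less. The error after a log2 fold change is its standard error. Both wheatwins that could be tested were higher in NaCl than in control roots (Wheatwin-1 adjusted p = 3.18e-05, Wheatwin-2 adjusted p = 4.23e-05), where 18.5% of all genes tested were called higher. Having 2 and 1 reads in control roots, both passed the filter through NaCl roots alone. Their direction was thus fixed beforehand, and the count of 2 adds nothing to the levels. With 3-MA under salt, Wheatwin-1 was 1.99 ± 0.26 higher on the log2 scale in roots (adjusted p = 0.00182) and Wheatwin-2 1.60 ± 0.27 higher (adjusted p = 0.00561). These calls held without any 1 library. When all 6 groups shared 1 estimate of the spread, the 3-MA call of Wheatwin-1 was lost (adjusted p = 0.125) and that of Wheatwin-2 held (adjusted p = 0.0343). All 3 wheatwins tested were called higher with 3-MA in roots, against 8.16% of all genes.

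In leaves the wheatwins were not silent without salt. Wheatwin-1 had 116, 80.7 and 423 CPM in 3-MA + NaCl leaves, 22.2, 11.4 and 6.99 CPM in NaCl leaves and 1.58, 14.02 and 0.155 CPM in control leaves. Wheatwin-2 had 118, 93.2 and 271 CPM in 3-MA + NaCl leaves, 20.1, 9.01 and 6.60 CPM in NaCl leaves and 2.68, 5.43 and 1.35 CPM in control leaves. All 3-MA + NaCl leaf libraries lay above all NaCl leaf libraries for both genes, while the NaCl and control leaves overlapped for Wheatwin-1 and not for Wheatwin-2. Both rose with 3-MA in salt-treated leaves (Wheatwin-1 log2 fold change 4.00 ± 0.72, adjusted p = 0.00883, and Wheatwin-2 log2 fold change 3.82 ± 0.56, adjusted p = 0.00414), also without any 1 library. Without replicate 3 of the 3-MA + NaCl leaves, the changes were 2.93 and 3.21. With 3-MA in leaves 2 of the 3 wheatwins were called higher, against 8.44% of all genes. For NaCl against control leaves, Wheatwin-2 was called higher (log2 fold change 1.96 ± 0.54, adjusted p = 0.0331) and Wheatwin-1 was not (log2 fold change 1.40 ± 1.01, adjusted p = 0.346). The Wheatwin-2 call was lost without NaCl leaf replicate 1 or control leaf replicate 1 or 3 (log2 fold change 1.35 to 1.85, adjusted p = 0.0767 to 0.114).

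The third wheatwin, Wheatwin-1-like protein (TraesCS1D02G355100, chromosome 1D), was mainly found in leaves. It had 5.76, 6.52 and 31.3 CPM in 3-MA + NaCl leaves, 7.37, 2.61 and 3.20 CPM in NaCl leaves and 0.315, 8.83 and 0.0518 CPM in control leaves. Its leaf groups overlapped through NaCl leaf replicate 1 and control leaf replicate 2, and neither leaf comparison was called (adjusted p = 0.115 with 3-MA and 0.761 with NaCl alone). In roots it had 40 reads with NaCl and none in the controls, at least 10.5-fold higher counted against a floor of 3 reads over the group. It rose further with 3-MA in roots (log2 fold change 2.09 ± 0.44, adjusted p = 0.014), a call lost without 3-MA + NaCl root replicate 1 or 3 (log2 fold change 1.93 to 1.98, adjusted p = 0.0554 to 0.0663). The remaining wheatwin gene (TraesCS6A02G332400, chromosome 6A) had no count in any library.

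Chitinase 2 was the most abundant chitinase in control roots, where each of the others had at most 2.21 CPM in any library. Per length (FPKM, fragments scaled to gene length and library total), this gene (TraesCS2D02G033100, chromosome 2D) made up 26.2% of the family's summed mean in 3-MA + NaCl roots, 39.7% in NaCl roots and 90.8% in control roots. In leaves its share was 23.0% with 3-MA + NaCl, 73.5% with NaCl and 70.1% in controls. The gene on chromosome 3D described only as Chitinase (TraesCS3D02G260300) took the first place in 3-MA + NaCl roots, with 48.0% of the family. All 7 chitinases with counts were called higher in NaCl roots than in control roots, against 18.5% of all genes higher and 17.1% lower, and the median fitted change was 3.98 (also with the gene at 0 in controls put at its lower bound), against 0.03 over all genes tested. Of these, TraesCS3A02G260100 and TraesCS3B02G293200 had 0 and 1 reads in control roots. They passed the filter through NaCl roots alone, which fixed their direction.

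Of the 8 chitinases, 4 lie on the third chromosome group and behaved alike in roots. TraesCS3D02G260300 (chromosome 3D, 362423416 to 362424679) had 229.8, 182 and 230.0 CPM in 3-MA + NaCl roots, 83.8, 76.2 and 45.6 CPM in NaCl roots and 0.640, 0.286 and 0.673 CPM in control roots. No groups overlapped, and the changes were 1.64 ± 0.22 with 3-MA (adjusted p = 0.00219) and 7.02 ± 0.37 with NaCl (adjusted p = 3.97e-05). TraesCS3B02G293200 on chromosome 3B had 53.1, 46.7 and 54.3 CPM in 3-MA + NaCl roots, 6.87, 12.8 and 5.73 CPM in NaCl roots and 0, 0.0357 and 0 CPM in control roots, with 942 reads in NaCl roots and 1 in control roots (ratio 742, interval 133 to 29325). Its rise with 3-MA was 2.60 ± 0.28 (adjusted p = 0.000806). Chitinase 3 (TraesCS3A02G260200) had 26.9, 27.2 and 31.6 CPM in 3-MA + NaCl roots, 9.17, 12.7 and 7.40 CPM in NaCl roots and 1.07, 0.286 and 0.486 CPM in control roots, and rose by 1.55 ± 0.19 with 3-MA (adjusted p = 0.00147) and 3.98 ± 0.41 with NaCl (adjusted p = 0.000335). These 3 genes kept both calls without any 1 library, but with all 6 groups in 1 fit the 3-MA changes did not pass (adjusted p = 0.190, 0.118 and 0.367).

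The Endochitinase (TraesCS3A02G260100) lies close to Chitinase 3 on chromosome 3A. The study's own tables name it, so its choice is not independent of these samples. It had 6.29, 5.76 and 6.39 CPM in 3-MA + NaCl roots and 3.59, 1.75 and 1.17 CPM in NaCl roots, and no read in control roots, at least 64.3-fold higher with NaCl. Its change with 3-MA was 1.49 ± 0.35 (adjusted p = 0.0214), a call lost without 3-MA + NaCl root replicate 1, 2 or 3 or NaCl root replicate 2 (log2 fold change 1.37 to 1.55, adjusted p = 0.0647 to 0.0764).

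**Figure D2:**
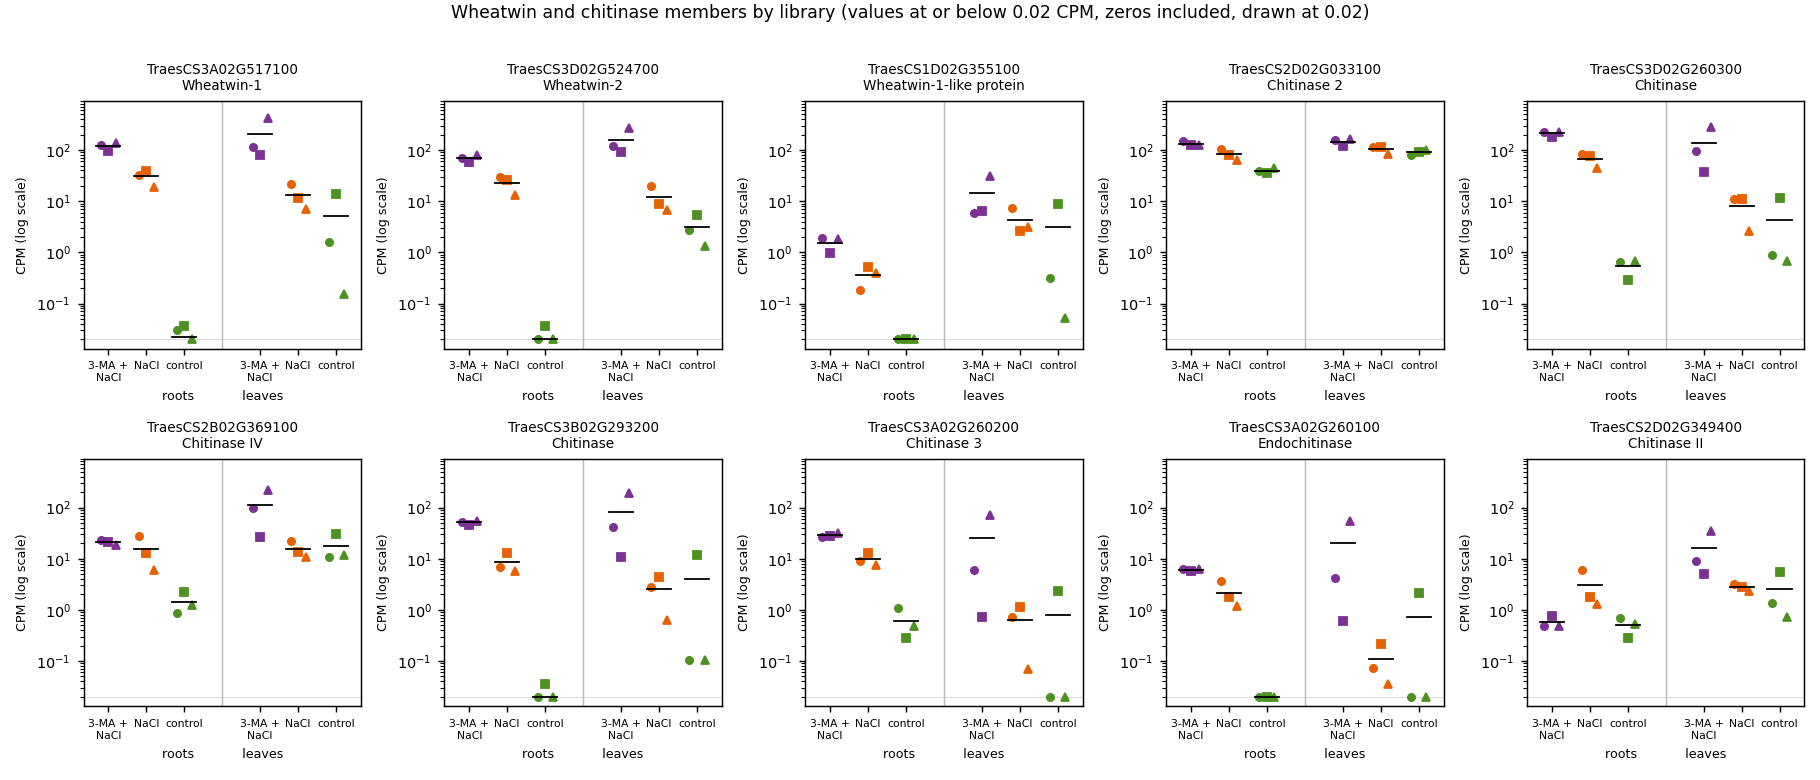
CPM (log scale) of the 3 wheatwin and 7 chitinase genes with any count, 1 panel per gene, in 3-MA + NaCl, NaCl and control libraries of roots (left) and leaves (right). Points are libraries (circle, square and triangle for replicates 1, 2 and 3), bars are group means, and values at or below 0.02 CPM, zeros included, are drawn at 0.02. Control leaf replicate 2 (squares) stands above replicates 1 and 3 for 9 of the 10 genes, Chitinase 2 being the exception.

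The other chitinases showed smaller or opposite changes in roots. Chitinase 2 had 149.5, 123 and 124 CPM in 3-MA + NaCl roots, 105, 81.3 and 63.3 CPM in NaCl roots and 38.5, 35.2 and 44.2 CPM in control roots, and its NaCl change was 1.11 ± 0.20 (adjusted p = 0.00396). Its rise with 3-MA (log2 fold change 0.67 ± 0.18, adjusted p = 0.0362) was lost without 3-MA + NaCl root replicate 1, 2 or 3 or NaCl root replicate 2 (log2 fold change 0.58 to 0.73, adjusted p = 0.0765 to 0.131). Chitinase IV (TraesCS2B02G369100, chromosome 2B) had 23.8, 20.9 and 18.4 CPM in 3-MA + NaCl roots, 28.0, 12.7 and 6.01 CPM in NaCl roots and 0.883, 2.21 and 1.23 CPM in control roots, rose with NaCl (log2 fold change 3.47 ± 0.59, adjusted p = 0.00273) and was not called with 3-MA (log2 fold change 0.43 ± 0.45, adjusted p = 0.545). Chitinase II (TraesCS2D02G349400, chromosome 2D) was the 1 chitinase that fell with 3-MA in roots, with 0.490, 0.762 and 0.475 CPM in 3-MA + NaCl roots, 5.995, 1.78 and 1.28 CPM in NaCl roots and 0.701, 0.286 and 0.523 CPM in control roots (log2 fold change -2.38 ± 0.60, adjusted p = 0.0272 with 3-MA, and log2 fold change 2.60 ± 0.64, adjusted p = 0.0149 with NaCl). Its fall was lost without 3-MA + NaCl root replicate 1, 2 or 3 (log2 fold change -2.62 to -2.25, adjusted p = 0.0755 to 0.105), and its rise was lost without control root replicate 2 or 3 (log2 fold change 2.31 to 2.61, adjusted p = 0.054 to 0.065). In all, 5 of 7 chitinases were called higher and 1 lower with 3-MA in roots, against 8.16% and 12% of all genes, and 3 were called higher without NaCl root replicate 2 or any 1 of the 3-MA + NaCl root libraries. Of all genes, 3574 were called higher without NaCl root replicate 2. Without 3-MA + NaCl root replicate 1, 2 and 3 it was 2547, 2850 and 2815, against 6013 in the full fit.

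Leaf chitinases rose with 3-MA under salt but were not called with salt alone. With 3-MA in salt-treated leaves, 6 of 7 were called higher and none lower, against 8.44% higher and 9.94% lower among all genes. The 6 include the Endochitinase, which had 2, 6 and 1 reads in the NaCl leaf libraries. It passed the filter through 3-MA + NaCl leaves alone, which fixed its direction. At an unadjusted p under 0.05, 7 were higher and 0 lower, and DESeq2 called 6 higher and 0 lower. Without any 1 of the NaCl leaf libraries only 1 chitinase was called higher, and without 3-MA + NaCl leaf replicate 1 it was 3. All genes called higher were 2409, 3055 and 2810 without NaCl leaf replicate 1, 2 and 3. They were 2267 without 3-MA + NaCl leaf replicate 1, against 5472 in the full fit. TraesCS3D02G260300 had 97.6, 37.9 and 286 CPM in 3-MA + NaCl leaves, 11, 11.1 and 2.66 CPM in NaCl leaves and 0.894, 11.5 and 0.673 CPM in control leaves, and its 3-MA change (log2 fold change 4.16 ± 0.83, adjusted p = 0.0125) kept its call without any 1 library. TraesCS3B02G293200 had 42.6, 10.6 and 196 CPM in 3-MA + NaCl leaves, 2.80, 4.34 and 0.639 CPM in NaCl leaves and 0.105, 11.7 and 0.104 CPM in control leaves. Its 3-MA call (log2 fold change 5.07 ± 1.12, adjusted p = 0.0183) was lost without NaCl leaf replicate 1, 2 or 3 (log2 fold change 4.60 to 5.67, adjusted p = 0.051 to 0.0762). Chitinase IV, with 97.5, 26.4 and 219 CPM in 3-MA + NaCl leaves, 21.7, 13.5 and 10.8 CPM in NaCl leaves and 10.9, 30.5 and 11.7 CPM in control leaves, showed log2 fold change 2.97 ± 0.68, adjusted p = 0.0211, a call lost without 3-MA + NaCl leaf replicate 1 or 3 or NaCl leaf replicate 1, 2 or 3 (log2 fold change 2.10 to 3.30, adjusted p = 0.0507 to 0.0778).

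The low chitinases had the same leaf pattern with a wider spread. The Endochitinase had 4.21, 0.607 and 55.6 CPM in 3-MA + NaCl leaves, 0.0719, 0.217 and 0.0355 CPM in NaCl leaves and 0, 2.17 and 0 CPM in control leaves. Its call with 3-MA (log2 fold change 7.56 ± 1.84, adjusted p = 0.0258) was lost without NaCl leaf replicate 1, 2 or 3 (log2 fold change 7.14 to 8.51, adjusted p = 0.0796 to 0.099). Chitinase 3 had 5.99, 0.735 and 70.7 CPM in 3-MA + NaCl leaves, 0.719, 1.12 and 0.0710 CPM in NaCl leaves and 0, 2.36 and 0 CPM in control leaves, so that 3-MA + NaCl leaf replicate 2 lay inside the range of the NaCl leaves, and its call (log2 fold change 5.40 ± 1.57, adjusted p = 0.0476) was lost without 3-MA + NaCl leaf replicate 1 or 3 or NaCl leaf replicate 1, 2 or 3 (log2 fold change 2.49 to 6.09, adjusted p = 0.0719 to 0.167). Chitinase II had 8.99, 5.14 and 34.6 CPM in 3-MA + NaCl leaves, 3.24, 2.79 and 2.38 CPM in NaCl leaves and 1.37, 5.52 and 0.725 CPM in control leaves, and its call (log2 fold change 2.60 ± 0.66, adjusted p = 0.0299) was lost without 3-MA + NaCl leaf replicate 1 or NaCl leaf replicate 1, 2 or 3 (log2 fold change 2.49 to 2.92, adjusted p = 0.0505 to 0.0972). Chitinase 2 differed from these, at 156, 121 and 161 CPM in 3-MA + NaCl leaves and 113, 117 and 84.1 CPM in NaCl leaves (log2 fold change 0.54 ± 0.20, adjusted p = 0.103).

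With NaCl alone in leaves, 0 of 6 chitinases tested were called in either direction by edgeR, against 10.1% of all genes higher and 13.2% lower. No chitinase had an unadjusted p under 0.05, and DESeq2 called 0. Without control leaf replicate 2 the count was 3 of the family called higher, with 6015 of all genes called higher, against 6348 in the full fit. The 2 remaining control libraries had 0.105 and 0.104 CPM of TraesCS3B02G293200, against 11.7 CPM in replicate 2.

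Thaumatin-domain genes split into groups with opposite responses. In NaCl against control roots, 28 of 73 thaumatin genes tested were called higher (38.4%) and 9 lower (12.3%), against 18.5% and 17.1% of all genes. Their median change was 0.57 (also with genes at 0 in controls put at their lower bounds), against 0.03 over all genes. TraesCS7B02G417700, TraesCS4A02G498000 and TraesCS4A02G296400 had no read in control roots, and TraesCSU02G146600 and TraesCS4D02G015600 had 1 each. TraesCS7D02G551400, TraesCS7A02G558500 and TraesCS2A02G110300 also had few reads there. All of these passed the filter through NaCl roots alone, which fixed their direction. The 28 higher calls and the median thus include rises that the filter set, and they describe the genes tested only. With 3-MA under salt in roots, 3 of 71 were called higher (4.23%) and 19 lower (26.8%), against 8.16% and 12% of all genes, with a median of -0.53 against -0.01. The count of falls with 3-MA was 9, 8 and 11 without 3-MA + NaCl root replicate 1, 2 and 3 in turn. All genes called lower also became fewer in these fits, with 4883, 4989 and 5627 against 8866 in the full fit. Among all 135 members, 37 of 82 tested were higher and 9 lower with NaCl in roots, and 11 of 81 were higher and 20 lower with 3-MA. The 11 became 7 without 3-MA + NaCl root replicate 1 or 3, where 2547 and 2815 of all genes were called higher, against 6013 in the full fit.

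**Figure D3:**
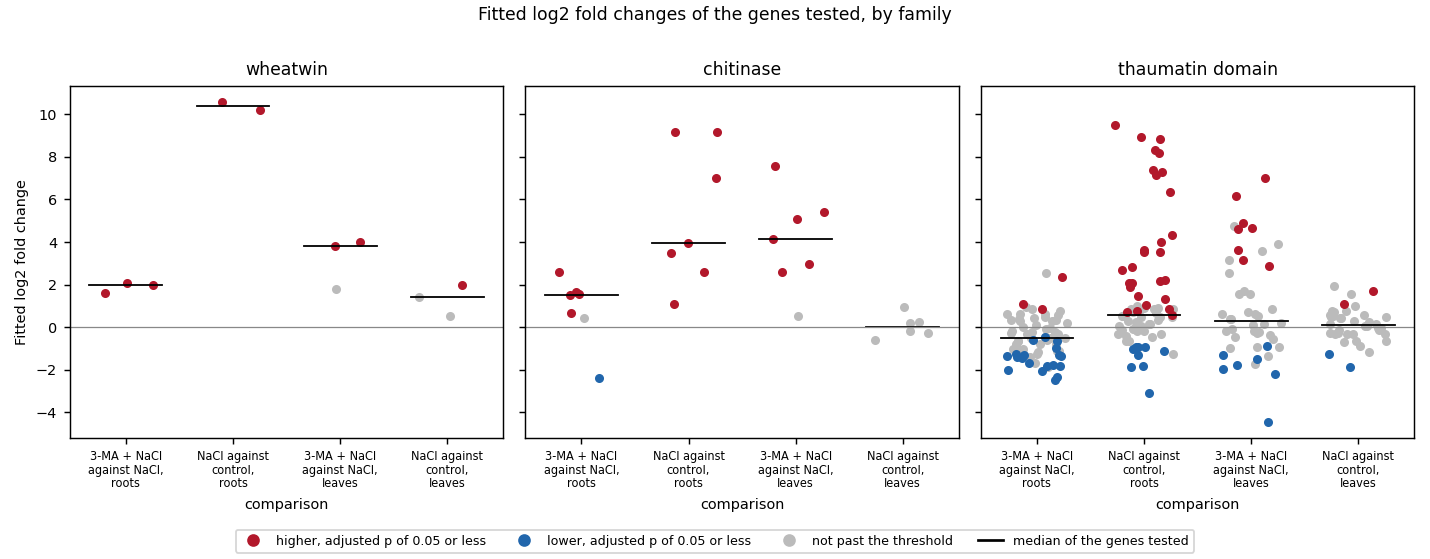
Fitted log2 fold changes (y axis) of the wheatwin, chitinase and thaumatin-domain genes that passed the low-count filter in each of 4 treatment comparisons (x axis). Each point is a gene, coloured by its call at an adjusted p of 0.05 or less, and the bar is the median of the genes tested. With 3-MA in roots, Chitinase II is the 1 gene of the chitinases and wheatwins below 0, whereas 19 of 71 thaumatin genes were called lower there.

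The thaumatin gene with the most counts per length over all libraries, TraesCS4A02G296300 (chromosome 4A, 596523171 to 596523860), followed the wheatwins in roots. It had 219, 182 and 243 CPM in 3-MA + NaCl roots, 123, 106 and 75.9 CPM in NaCl roots and 5.97, 5.96 and 7.77 CPM in control roots. The groups did not overlap, and the changes were 1.08 ± 0.19 with 3-MA (adjusted p = 0.00635) and 3.98 ± 0.23 with NaCl (adjusted p = 4.23e-05). Its share of the family's summed FPKM was 35.8% in 3-MA + NaCl roots and 19.4% in NaCl roots. TraesCS5B02G015500 (chromosome 5B) had 119.6, 82.6 and 111 CPM in 3-MA + NaCl roots, 24.0, 25.5 and 11.3 CPM in NaCl roots and 1.13, 0.893 and 1.01 CPM in control roots, the largest rise with 3-MA among the thaumatin genes called (log2 fold change 2.36 ± 0.30, adjusted p = 0.00164). With NaCl it rose by 4.35 ± 0.34 (adjusted p = 0.000121). Both 3-MA calls held without any 1 library, and with all 6 groups in 1 fit that of TraesCS4A02G296300 was lost (adjusted p = 0.525). The third gene called higher with 3-MA in roots, TraesCS1D02G100800, had 5.28, 9.28 and 5.38 CPM in 3-MA + NaCl roots against 4.32, 3.31 and 3.23 CPM in NaCl roots, and its call (log2 fold change 0.88 ± 0.25, adjusted p = 0.0425) was lost without 3-MA + NaCl root replicate 1, 2 or 3 or NaCl root replicate 2 or 3 (log2 fold change 0.57 to 1.02, adjusted p = 0.0572 to 0.124).

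A second set of thaumatin genes rose with NaCl in roots and was not called with 3-MA. TraesCS4D02G015800 had 77.6, 61.1 and 76.0 CPM in 3-MA + NaCl roots, 122, 106 and 63.4 CPM in NaCl roots and 6.12, 8.57 and 9.27 CPM in control roots (NaCl log2 fold change 3.63 ± 0.29, adjusted p = 0.000119, 3-MA log2 fold change -0.44 ± 0.22, adjusted p = 0.207). The Thaumatin-like protein gene TraesCS5A02G017900, which the study's tables also name, had 24.7, 17.4 and 31.4 CPM in 3-MA + NaCl roots, 34.0, 23.3 and 10.5 CPM in NaCl roots and 1.61, 1.39 and 2.95 CPM in control roots (NaCl log2 fold change 3.54 ± 0.46, adjusted p = 0.000896). Its 3-MA + NaCl and NaCl roots overlapped (adjusted p = 0.863).

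Several members of this set had next to no reads in control roots. TraesCS7B02G417700 had 2.89, 3.69 and 1.45 CPM in NaCl roots and no read in control roots, at least 78.5-fold higher (adjusted p = 0.000763). TraesCSU02G146600, which is on no assigned chromosome, had 813 reads in NaCl roots and 1 in control roots (ratio 640, interval 115 to 25314, adjusted p = 0.000137). TraesCS4D02G015600 had 534 and 1 reads (ratio 420, interval 75.1 to 16637, adjusted p = 0.000124). None of the 3 was called with 3-MA in roots. TraesCS7B02G417700 had 3.92, 3.47 and 5.04 CPM in 3-MA + NaCl roots (adjusted p = 0.205). TraesCSU02G146600 had 8.71, 5.998 and 10.4 CPM in 3-MA + NaCl roots against 10.1, 7.81 and 3.75 CPM in NaCl roots (adjusted p = 0.713), and TraesCS4D02G015600 had 8.76, 4.74 and 8.26 CPM in 3-MA + NaCl roots against 5.45, 6.04 and 2.84 CPM in NaCl roots (adjusted p = 0.221). One more, singled out after its values were seen because it has a name, is the PWIR2 gene (TraesCS7D02G551400, chromosome 7D). It had 28.6, 18.4 and 32.6 CPM in 3-MA + NaCl roots, 26.4, 22.0 and 12.5 CPM in NaCl roots and 0.152, 0.0357 and 0 CPM in control roots (NaCl log2 fold change 8.17 ± 0.55, adjusted p = 6.89e-05).

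Other thaumatin genes fell with 3-MA in roots. TraesCS5A02G018000, with 28.4% of the family's FPKM in control roots, had 42.1, 39.2 and 45.8 CPM in 3-MA + NaCl roots, 124, 99.4 and 99.9 CPM in NaCl roots and 139, 131 and 136 CPM in control roots. Its fall with 3-MA (log2 fold change -1.35 ± 0.12, adjusted p = 0.000444) held without any 1 library, and NaCl alone did not move it past the threshold (log2 fold change -0.30 ± 0.14, adjusted p = 0.141). TraesCS5B02G328500 and TraesCS5A02G328500, on chromosomes 5B and 5A, had the 2 largest such falls among the genes named by the rule. TraesCS5B02G328500 had 2.37, 2.21 and 2.11 CPM in 3-MA + NaCl roots against 15.9, 8.66 and 8.73 CPM in NaCl roots (log2 fold change -2.32 ± 0.26, adjusted p = 0.000969). TraesCS5A02G328500 had 0.871, 1.000 and 0.765 CPM in 3-MA + NaCl roots against 4.94, 2.68 and 2.95 CPM in NaCl roots (log2 fold change -2.00 ± 0.29, adjusted p = 0.00294). Both calls held without any 1 library.

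Other genes fell with 3-MA less firmly. TraesCS4A02G070800 had 9.09, 11.8 and 7.52 CPM in 3-MA + NaCl roots against 32.8, 20.0 and 16.5 CPM in NaCl roots (log2 fold change -1.29 ± 0.27, adjusted p = 0.0132), a call lost without 3-MA + NaCl root replicate 1 or 3 (log2 fold change -1.25 to -1.14, adjusted p = 0.0551 to 0.0645). TraesCS4B02G226800 had 5.23, 6.93 and 4.14 CPM in 3-MA + NaCl roots against 17.9, 10.8 and 10.9 CPM in NaCl roots (log2 fold change -1.28 ± 0.25, adjusted p = 0.0106), a call lost without 3-MA + NaCl root replicate 1 (log2 fold change -1.25, adjusted p = 0.0553). TraesCS5A02G472800 was low, at 0.436, 0.190 and 0.713 CPM in 3-MA + NaCl roots against 1.03, 1.23 and 2.53 CPM in NaCl roots (log2 fold change -1.85 ± 0.53, adjusted p = 0.044), a call lost without 3-MA + NaCl root replicate 1 or 2 or NaCl root replicate 2 or 3 (log2 fold change -2.00 to -1.34, adjusted p = 0.0781 to 0.137).

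NaCl alone lowered 2 abundant thaumatin genes of control roots. TraesCS4D02G227400 (chromosome 4D, 386723521 to 386726274) had 53.9, 19.8 and 14.7 CPM in NaCl roots and 94.5, 103 and 125 CPM in control roots (log2 fold change -1.83 ± 0.44, adjusted p = 0.0131), a call lost without NaCl root replicate 2 (log2 fold change -1.61, adjusted p = 0.0521). TraesCS4A02G070700 on chromosome 4A had 36.4, 12.2 and 9.26 CPM in NaCl roots and 59.3, 66.3 and 91.4 CPM in control roots (log2 fold change -1.88 ± 0.48, adjusted p = 0.0167), a call lost without NaCl root replicate 2 or control root replicate 3 (log2 fold change -1.68 to -1.63, adjusted p = 0.0591 to 0.0619). NaCl root replicate 1 was closest to the controls for both, and the groups did not overlap. In 3-MA + NaCl roots TraesCS4D02G227400 had 25.9, 19.5 and 17.1 CPM (adjusted p = 0.458) and TraesCS4A02G070700 had 16.5, 17.7 and 12.2 CPM (adjusted p = 0.668), inside the range of NaCl roots. TraesCS5D02G485500 also fell with NaCl, to 12.7, 9.97 and 12.7 CPM in NaCl roots, against 22.3, 21.7 and 25.7 CPM in control roots (log2 fold change -0.95 ± 0.15, adjusted p = 0.0019). The low gene TraesCS6B02G157700 had no count in leaves and fell with NaCl in roots (log2 fold change -1.32 ± 0.38, adjusted p = 0.027), a call lost without NaCl root replicate 2 or 3 or control root replicate 2 or 3 (log2 fold change -1.36 to -0.93, adjusted p = 0.0502 to 0.101).

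**Figure D4:**
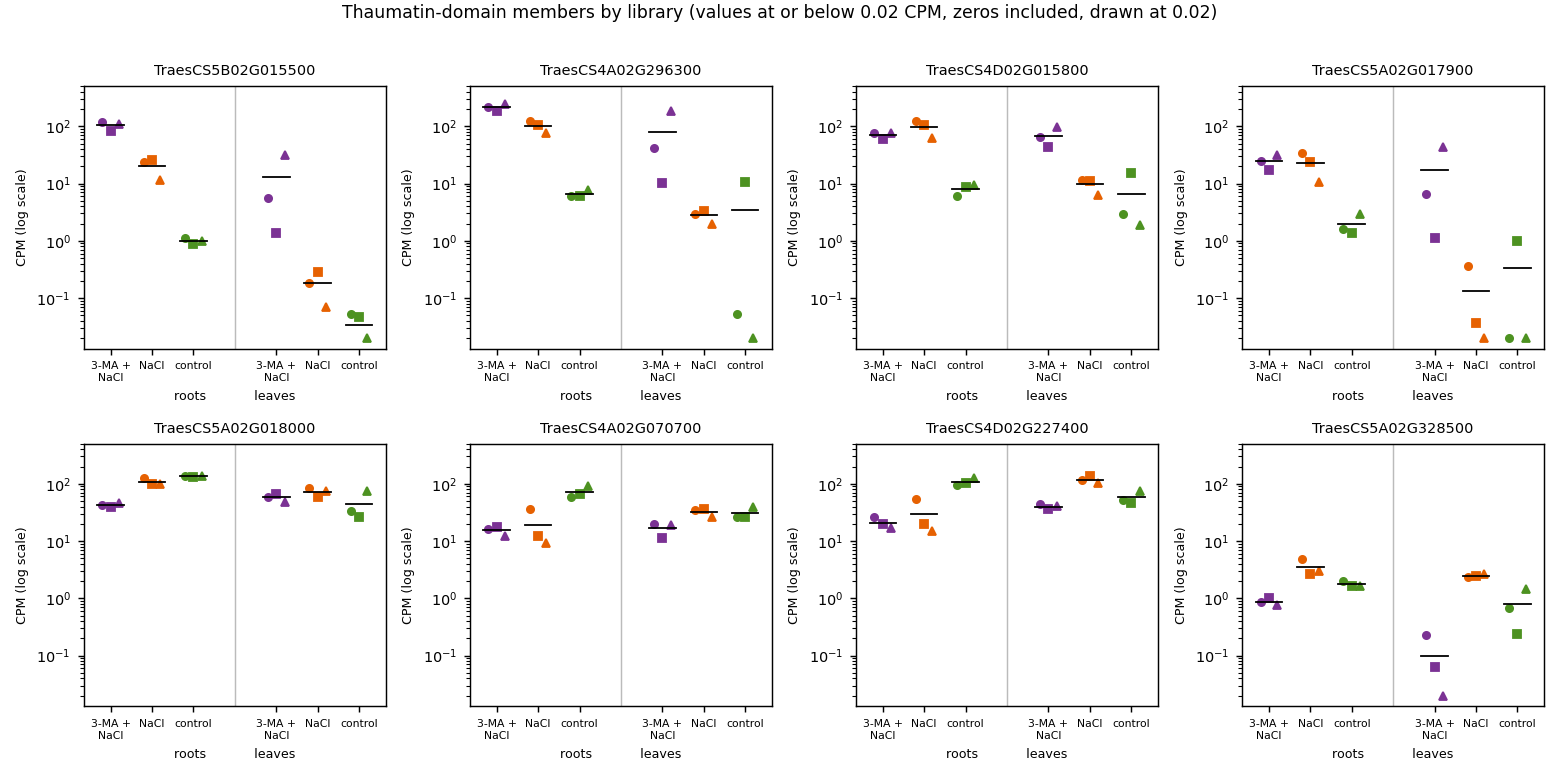
CPM (log scale) of 8 thaumatin-domain genes in 3-MA + NaCl, NaCl and control libraries of roots (left) and leaves (right). Points are libraries (circle, square and triangle for replicates 1, 2 and 3), bars are group means, and values at or below 0.02 CPM are drawn at 0.02. TraesCS4D02G227400 is lower in NaCl than in control roots and higher in NaCl than in control leaves.

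Leaf thaumatin genes responded to 3-MA in both directions. With 3-MA in salt-treated leaves, 8 of 46 tested were called higher (17.4%) and 7 lower (15.2%), against 8.44% and 9.94% of all genes, with a median of 0.28 against 0.00. The 8 include TraesCS5A02G017900, TraesCS5B02G015500 and TraesCS3D02G064700, which had few reads in NaCl leaves. These passed the filter through 3-MA + NaCl leaves alone, which fixed their direction. Over all members, 16 of 56 were higher and 7 lower. The 16 became 5, 7 and 6 without NaCl leaf replicate 1, 2 and 3, and the 7 became 4 without 3-MA + NaCl leaf replicate 3 or NaCl leaf replicate 1. All genes called higher were 2409, 3055 and 2810 in the former fits, against 5472 in the full fit. All genes called lower were 3790 and 3568 in the latter, against 6451. TraesCS4D02G015800 had 63.9, 43.1 and 97.4 CPM in 3-MA + NaCl leaves, 11.4, 11.1 and 6.35 CPM in NaCl leaves and 2.89, 15.02 and 1.92 CPM in control leaves, and its rise with 3-MA (log2 fold change 2.88 ± 0.36, adjusted p = 0.00242) held without any 1 library. TraesCS4A02G296300 had 42.0, 10.3 and 186 CPM in 3-MA + NaCl leaves, 2.98, 3.36 and 1.99 CPM in NaCl leaves and 0.0526, 10.5 and 0 CPM in control leaves (log2 fold change 4.91 ± 0.98, adjusted p = 0.0128), a call lost without NaCl leaf replicate 1 or 3 (log2 fold change 4.70 to 4.95, adjusted p = 0.0525 to 0.0578).

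The largest fitted rises with 3-MA in leaves came from genes with few reads in NaCl leaves. TraesCS5A02G017900 had 6.48, 1.12 and 43.2 CPM in 3-MA + NaCl leaves against 0.359, 0.0362 and 0 CPM in NaCl leaves (log2 fold change 7.03 ± 1.57, adjusted p = 0.0192), a call lost without NaCl leaf replicate 1, 2 or 3 (log2 fold change 6.45 to 9.64, adjusted p = 0.0556 to 0.074). TraesCS5B02G015500 had 5.67, 1.34 and 31.3 CPM in 3-MA + NaCl leaves against 0.180, 0.289 and 0.0710 CPM in NaCl leaves (log2 fold change 6.18 ± 1.27, adjusted p = 0.0141), a call lost without NaCl leaf replicate 1, 2 or 3 (log2 fold change 5.80 to 6.69, adjusted p = 0.0521 to 0.0634). TraesCS7B02G417700 had 8.53, 3.13 and 14.6 CPM in 3-MA + NaCl leaves against 0.324, 0.760 and 0 CPM in NaCl leaves (log2 fold change 4.65 ± 0.87, adjusted p = 0.0101), a call lost without NaCl leaf replicate 1 (log2 fold change 4.57, adjusted p = 0.0502). The PWIR2 gene reached 32.0, 13.2 and 242 CPM in 3-MA + NaCl leaves, against 14.3, 6.51 and 3.73 CPM in NaCl leaves and 0.631, 25.2 and 0 CPM in control leaves. Its leaf groups overlapped, and its rise with 3-MA (log2 fold change 3.62 ± 1.06, adjusted p = 0.0483) was 1.54 without 3-MA + NaCl leaf replicate 3 (adjusted p = 0.135) and was also lost without replicate 1 of that group or any 1 NaCl leaf library (log2 fold change 3.26 to 4.28, adjusted p = 0.0694 to 0.141). With NaCl alone in leaves its change was -0.04 ± 1.29 (adjusted p = 0.987), and 4.74 (adjusted p = 0.0145) without control leaf replicate 2.

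Of the 5 named falls with 3-MA in leaves, 4 held without any 1 library. TraesCS4D02G227400 had 43.6, 36.1 and 40.4 CPM in 3-MA + NaCl leaves, 116, 137 and 101 CPM in NaCl leaves and 52.8, 46.2 and 73.9 CPM in control leaves. It fell with 3-MA (log2 fold change -1.50 ± 0.18, adjusted p = 0.00207) and rose with NaCl alone (log2 fold change 1.10 ± 0.21, adjusted p = 0.00776), both without any library left out changing the call. TraesCS5A02G328500 had 0.230, 0.0639 and 0 CPM in 3-MA + NaCl leaves, 2.34, 2.46 and 2.63 CPM in NaCl leaves and 0.684, 0.236 and 1.45 CPM in control leaves, with a fall with 3-MA (log2 fold change -4.46 ± 0.67, adjusted p = 0.00463) and a rise with NaCl (log2 fold change 1.72 ± 0.52, adjusted p = 0.0442). The rise was lost without NaCl leaf replicate 1, 2 or 3 or control leaf replicate 1 or 2 (log2 fold change 1.27 to 1.76, adjusted p = 0.0548 to 0.119). TraesCS2D02G419800 had 1.58, 1.66 and 1.11 CPM in 3-MA + NaCl leaves against 4.64, 6.55 and 9.55 CPM in NaCl leaves (log2 fold change -2.19 ± 0.31, adjusted p = 0.00369), and TraesCS4A02G070800 had 0.864, 1.25 and 2.03 CPM in 3-MA + NaCl leaves against 4.06, 6.33 and 6.28 CPM in NaCl leaves (log2 fold change -1.96 ± 0.35, adjusted p = 0.00845). The fall of TraesCS4A02G070700 (log2 fold change -0.89 ± 0.25, adjusted p = 0.0434) was lost without 3-MA + NaCl leaf replicate 1 or 3 or NaCl leaf replicate 1, 2 or 3 (log2 fold change -1.03 to -0.81, adjusted p = 0.0568 to 0.125).

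With NaCl alone in leaves, few thaumatin genes were called. Of 38 tested, 2 were higher and 2 lower (5.26% each), against 10.1% and 13.2% of all genes. The 2 falls were TraesCS4B02G226800, with 1.08, 1.34 and 1.53 CPM in NaCl leaves and 2.89, 3.68 and 8.44 CPM in control leaves (log2 fold change -1.85 ± 0.41, adjusted p = 0.0145), a call lost without NaCl leaf replicate 1 (log2 fold change -1.73, adjusted p = 0.0548), and TraesCS5D02G485500, with 7.23, 11.9 and 5.54 CPM in NaCl leaves and 21.4, 12.6 and 27.9 CPM in control leaves (log2 fold change -1.26 ± 0.34, adjusted p = 0.0292), a call lost without NaCl leaf replicate 1 or 3 or control leaf replicate 1 or 3 (log2 fold change -1.23 to -1.01, adjusted p = 0.0795 to 0.0957). Over all members, 3 of 47 were higher and 2 lower, and with libraries scaled by size alone 6 were higher and 2 lower. With that scaling 14880 of all genes were called higher and 4750 lower, against 6348 and 8307. Without control leaf replicate 2, 15 members were called higher, 9 of them thaumatin genes, 3 chitinases and 3 wheatwins, so this comparison turned on 1 library. All genes called higher were 6015 in that fit, against 6348 in the full fit. Without control leaf replicate 1 or NaCl leaf replicate 1, 1 member was called higher, with 3888 and 3239 of all genes. The falls were 0 without NaCl leaf replicate 1 and 1 without NaCl leaf replicate 3. All genes called lower were 5164 and 4921 in these fits, against 8307 in the full fit.

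**Figure D5:**
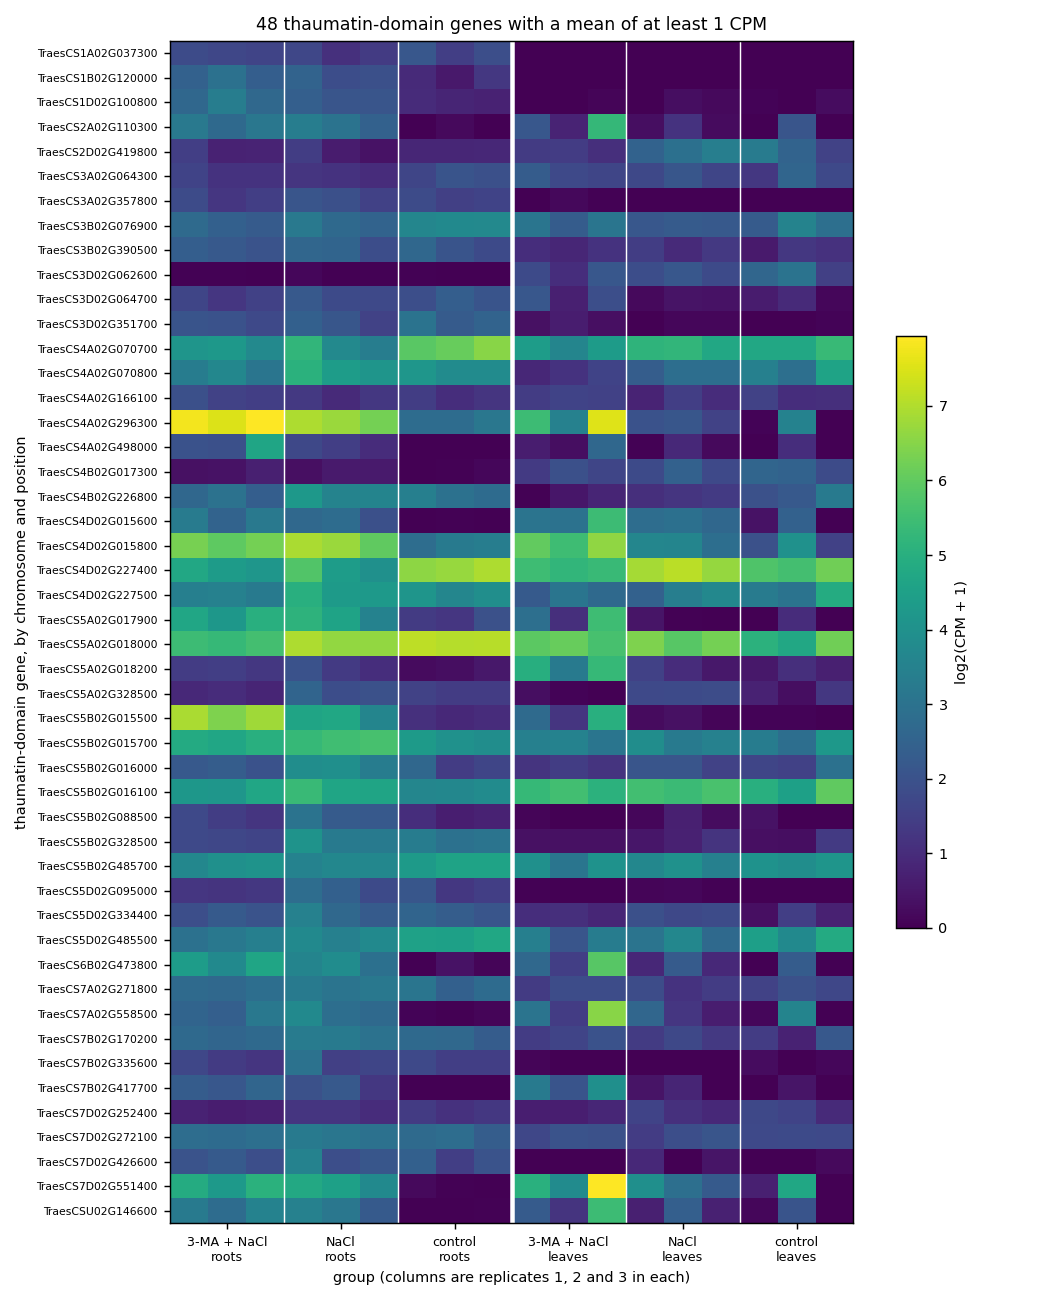
Levels, as log2(CPM + 1), of the 48 of 123 thaumatin-domain genes with a mean of at least 1 CPM over the 18 libraries, 1 row per gene in order of chromosome and position. Columns are replicates 1 to 3 of the 3-MA + NaCl, NaCl and control groups, roots left of the thick line and leaves right of it. Rows such as TraesCS7D02G551400 and TraesCS4A02G296300 are bright in control leaf replicate 2 and brightest among leaves in 3-MA + NaCl leaf replicate 3.

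Salt responses of 6 of the 10 chitinases and wheatwins tested differed between the tissues. The difference was tested as an interaction, the NaCl response in roots minus that in leaves. It was positive and called for 4 of 7 chitinases, 2 of 3 wheatwins and 10 of 76 thaumatin genes, and negative and called for 2 thaumatin genes and no other member (unadjusted p under 0.05 in 0 chitinases and 0 wheatwins, DESeq2 0 and 0). Over all genes, 6.17% were called higher and 4.91% lower. Wheatwin-2 had the smallest adjusted p of these families' named genes (log2 fold change 8.56 ± 1.22, adjusted p = 0.00119), followed by TraesCS4D02G227400 on the negative side (log2 fold change -2.95 ± 0.54, adjusted p = 0.00499). Both were called without any 1 library, as was Wheatwin-1 (log2 fold change 8.74 ± 1.90, adjusted p = 0.0119), TraesCS3D02G260300 (log2 fold change 6.04 ± 1.26, adjusted p = 0.00944) and Chitinase IV (log2 fold change 3.60 ± 0.80, adjusted p = 0.0133). Fitted values are not bounds where control roots had 0 to 2 reads, since they depend on the prior count.

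Control leaf replicate 2 carried much of this tissue difference for several genes. Without it, the interaction was 7.96 for Wheatwin-2 (adjusted p = 0.00176), 6.17 for Wheatwin-1 (adjusted p = 0.0160) and 3.60 for TraesCS3D02G260300 (adjusted p = 0.0232). That of TraesCS3B02G293200 (log2 fold change 9.66 ± 2.43, adjusted p = 0.0239) became 4.50 (adjusted p = 0.217), and that of the Endochitinase (log2 fold change 11.65 ± 2.68, adjusted p = 0.02) could not be estimated, since no read was left in either control group. For TraesCS4A02G296300, not called in the full fit (log2 fold change 4.27 ± 1.38, adjusted p = 0.0653), the estimate turned to -2.56 (adjusted p = 0.118). The 4 positive chitinase calls became 2 without this library, where 5440 of all genes were called positive, against 4892 in the full fit. Over all members the 16 positive calls became 8, 7 and 8 without control root replicate 1, 2 and 3, 8 without NaCl root replicate 2 and 10 without NaCl leaf replicate 3. Positive calls over all genes were then 3931, 3086, 3690, 3394 and 3751, against 4892 in the full fit. The 2 negative calls became 1 without any 1 control root library, control leaf replicate 1, NaCl root replicate 2 or 3, or NaCl leaf replicate 1 or 2. Negative calls over all genes were 2210 to 3245 in these fits, against 3898 in the full fit.

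For 10 of 86 members (11.6%) edgeR called the response to 3-MA under salt lower in roots than in leaves, against 7.12% of all genes. It was lower in roots than in leaves for 1 of 7 chitinases, 8 of 76 thaumatin genes and 1 of 3 wheatwins, and higher for 0 of 86 members (unadjusted p under 0.05 in 4, and DESeq2 called 4), against 7.12% lower and 3.4% higher over all genes. Chitinase II had opposite calls in the 2 tissues and a difference of -5.07 ± 1.02 (adjusted p = 0.01). TraesCS4D02G015800 (log2 fold change -3.41 ± 0.46, adjusted p = 0.00121) and TraesCS5A02G018000 (log2 fold change -1.18 ± 0.24, adjusted p = 0.00973) also kept their calls without any 1 library. Wheatwin-2 (log2 fold change -2.30 ± 0.65, adjusted p = 0.043) was lost without 3-MA + NaCl root replicate 1, 2 or 3 or NaCl root replicate 1 or 2 or 3-MA + NaCl leaf replicate 1 or 3 or NaCl leaf replicate 2 or 3 (log2 fold change -2.47 to -1.68, adjusted p = 0.0579 to 0.104). Without 3-MA + NaCl leaf replicate 2, the lowest of its group in all 3 family sums, 22 members were called lower, 6 of them chitinases and 14 thaumatin genes. All genes called lower rose there as well, from 5690 to 8883. The count of members was 5 without 3-MA + NaCl root replicate 1 or 2 and 6 without NaCl root replicate 2 or NaCl leaf replicate 3. All genes called lower were then 3188, 3169, 3846 and 4120. The 0 higher calls became 4 without NaCl root replicate 1 and 1 without 3-MA + NaCl leaf replicate 1. All genes called higher were 2645 and 1648 in these fits, against 2714 in the full fit.

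Calls between the control tissues differed by family. Of the members tested in control roots against control leaves, 37 of 57 thaumatin genes were higher in roots and 5 lower, while 0 of 5 chitinases were higher (unadjusted p under 0.05 in 0, DESeq2 0) and 4 lower, and the 1 wheatwin tested was lower. Several of the higher thaumatin genes, such as TraesCS6B02G157700, had no read in control leaves and passed the filter through roots alone. The filter fixed their direction, as it did for the wheatwin through leaves, so these counts are a description only. Over all genes 36.1% were higher and 29.3% lower, and the median change was 0.14. Chitinase IV (log2 fold change -3.62 ± 0.48, adjusted p = 7.74e-05), Chitinase 2 (log2 fold change -1.20 ± 0.17, adjusted p = 0.000127) and Wheatwin-2 (log2 fold change -7.59 ± 0.91, adjusted p = 4.02e-05) were lower in roots without any 1 library changing the call. The call of TraesCS3D02G260300 (log2 fold change -3.03 ± 0.99, adjusted p = 0.0206) was lost without control root replicate 1 or 2 or control leaf replicate 2 (log2 fold change -3.19 to -0.56, adjusted p = 0.0647 to 0.398). The count of lower chitinases was 2 without control root replicate 2 or control leaf replicate 2, and without that leaf library 1 was higher. That of lower thaumatin genes was 8 without control root replicate 3, and 2 wheatwins were lower without any 1 control root library or control leaf replicate 3. All genes called lower were 19548 to 21177 in these fits, against 21071 in the full fit. Without control leaf replicate 2, 26531 of all genes were higher, against 25943. TraesCS5A02G018000 (log2 fold change 1.63 ± 0.33, adjusted p = 0.00143) and TraesCS5B02G015500 (log2 fold change 4.72 ± 0.66, adjusted p = 0.000118) were higher in control roots, and TraesCS5B02G016100 (log2 fold change -1.65 ± 0.33, adjusted p = 0.00117) was lower.

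Position and length were read for what the members share beyond their domain. Of the 123 thaumatin genes, 47 lay on the fifth chromosome group, including 14 neighbours within 14193321 to 15039385 on chromosome 5A and 9 within 15004986 to 15197961 on chromosome 5B. Of the 5A neighbours, 6 had no count and 3 could be tested in NaCl against control roots, of which 2 were called higher. Of the 5B neighbours, 1 had no count and all 4 tested were called higher, against 18.5% of all genes called higher and 38.4% of the thaumatin genes tested. TraesCS5A02G017900 and TraesCS5A02G018000 have consecutive identifiers, and with 3-MA in roots TraesCS5A02G018000 was called lower and TraesCS5A02G017900 was not called, a difference between the genes that was not tested. TraesCS5B02G016100, in the 5B group, had 17.4, 17.0 and 25.1 CPM in 3-MA + NaCl roots, 40.4, 24.4 and 24.0 CPM in NaCl roots and 11.5, 11.8 and 13.2 CPM in control roots, and rose with NaCl (log2 fold change 1.32 ± 0.22, adjusted p = 0.00251). The thaumatin genes called higher with NaCl in roots had a median length of 938 bases (306 to 2363, 28 genes), those called lower 1583 bases (832 to 1929, 9 genes) and the others tested 1301 bases (378 to 2115, 36 genes), a description with no test.

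Other defence genes were counted from lists matched on descriptions. Of all genes tested, 8.16% were called higher and 12% lower with 3-MA in roots, 18.5% and 17.1% with NaCl in roots, 8.44% and 9.94% with 3-MA in leaves, and 10.1% and 13.2% with NaCl in leaves. Of 21 genes for pathogenesis-related protein 1, 9 of 17 tested were higher and 3 lower with 3-MA in roots, 11 of 16 higher and 2 lower with NaCl in roots, and 5 of 6 higher and 0 lower with 3-MA in leaves (unadjusted p under 0.05 in 6 higher and 0 lower, DESeq2 7 and 0). With NaCl in leaves edgeR called 0 of 5 (0 at an unadjusted p under 0.05, DESeq2 0). Xylanase inhibitors, which block microbial enzymes that digest cell walls, were called mostly in opposite directions, with 1 of 9 higher and 7 lower with 3-MA in roots and 7 of 9 higher and 1 lower with NaCl in roots. In leaves 2 of 6 were higher and 0 lower with 3-MA (DESeq2 3 and 1, unadjusted 4 and 1), and 0 of 4 higher and 1 lower with NaCl (DESeq2 and unadjusted 1 and 1). Of 11 glucanase genes, whose products cut a cell wall glucan, 2 of 9 were higher and 4 lower with 3-MA in roots, 3 of 8 higher and 3 lower with NaCl in roots, 3 of 9 higher and 2 lower with 3-MA in leaves, and 0 of 9 higher and 1 lower with NaCl in leaves (DESeq2 0 and 2, unadjusted 0 and 3). Of 23 defensin or thionin genes, at most 3 could be tested in any comparison, with 1 higher and 1 lower with 3-MA in roots and 1 of 2 higher with NaCl in roots. Of 2 oxalate oxidase genes 1 was tested, and it was higher with 3-MA in leaves, and of 2 Bowman-Birk inhibitor genes 1 was tested and was lower with 3-MA in roots. No gene matched the lists for PR-10 or for hevein and wound-induced proteins.

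The genes whose levels ran most closely with the most abundant member of each family were found over 18 libraries among 15618 described genes with counts, as Pearson's r of log2(CPM + 1). They were a catalase (TraesCS6A02G041700, r = 0.968), WIR1A (TraesCS5B02G045100, r = 0.965) and a beta-1,3-glucanase (TraesCS3A02G483000, r = 0.959) for Wheatwin-1. For the thaumatin gene TraesCS4A02G296300 they were a gene for a protein of unknown function on chromosome 4A that the authors had added to the annotation (r = 0.957), a carboxypeptidase (TraesCS2D02G066600, r = 0.949) and PR1-4 (TraesCS7D02G161200, r = 0.947). For Chitinase 2 they were an initiation factor subunit (TraesCS5B02G260000, r = 0.933), a glycosyltransferase (TraesCS6A02G018200, r = 0.931) and a CASP-like protein (TraesCS1D02G392000, r = 0.927). The 18 points share treatments and tissues, so these values are a description only.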

How the data were processed

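RNA was sequenced from 18 wheat libraries (6 groups of 3) as paired reads of 150 bases. Reads were mapped to the Chinese Spring assembly (IWGSC, Ensembl Plants), and the submitters' processing notes list HISAT2 2.0.5 and Bowtie 0.12.2. The program that counted reads, its handling of reads matching several gene copies and the use of strand are not given in the sources used here. The table deposited by the authors holds raw counts and FPKM values per gene. The FPKM were computed by the authors with a library factor and were used only for shares within a family and for choosing abundant members. Columns of the authors' own comparisons between groups (group means, fold changes and p-values) were not used.

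Counts were tested with edgeR 4.0.16 (R 4.3.3), separately for each pair of groups: filterByExpr, TMM factors (0.607 to 1.27 over the libraries), quasi-likelihood fit, and Benjamini-Hochberg adjustment over all genes tested. Differences between tissues were tested as interactions over 4 groups. CPM are counts scaled to the library total times its TMM factor over all 18 libraries. Fold changes are the first group over the second.

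The genes given by name were all wheatwins with counts, the 3 largest non-overlapping rises and falls per family and treatment comparison with a mean of at least 1 CPM, the 3 members highest by FPKM in each tissue, and 2 genes that the study's tables name. Members and lists were chosen with earlier results of these data known. Alternatives included DESeq2 1.42.0, other scaling and filters, all groups in 1 fit, a replicate block, and each library left out. The procedure was tested on simulated data. Precision was limited by 3 libraries a group and 27156078 to 33150906 counts a library.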

Additional observations from a re-analysis of the deposited data

Results flagged for a closer look

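For 12 of the members given by name (18 members were called in all) the response to NaCl differed between roots and leaves by the interaction test (roots minus leaves, log2 scale, edgeR's adjusted p of 0.05 or less). Of the 86 members tested, 16 were called higher (18.6%) and 2 lower (2.33%), against 6.17% and 4.91% of all genes. Among the chitinases the differences were 11.65 for TraesCS3A02G260100, 9.66 for TraesCS3B02G293200, 6.04 for TraesCS3D02G260300 and 3.60 for TraesCS2B02G369100. TraesCS3A02G260100 had no read in control roots and could not be estimated without control leaf replicate 2, and TraesCS3B02G293200 lost its call without that library. The wheatwins TraesCS3A02G517100 and TraesCS3D02G524700 had 8.74 and 8.56. Among the thaumatin genes TraesCSU02G146600 had 8.11, TraesCS4D02G015800 3.02, TraesCS4B02G226800 2.68 and TraesCS4A02G070800 1.87, while TraesCS4A02G070700 had -2.04 and TraesCS4D02G227400 -2.95. TraesCSU02G146600 had 1 read in control roots and 2, 68 and 0 reads in control leaf replicates 1, 2 and 3. Fitted values with so few control root reads, also those of the wheatwins, are not bounds.

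For 7 of the members given by name (10 members were called in all) the response to 3-MA under salt differed between the tissues, and in each it was lower in roots. Of the 86 members tested, 10 were called lower (11.6%) and 0 higher, against 7.12% and 3.4% of all genes. The differences were -5.07 for the chitinase TraesCS2D02G349400 and -2.30 for the wheatwin TraesCS3D02G524700. Among the thaumatin genes they were -1.18 for TraesCS5A02G018000, -3.41 for TraesCS4D02G015800, -3.91 for TraesCS4A02G296300, -4.11 for TraesCS7B02G417700 and -7.00 for TraesCS5A02G017900. The single high leaf libraries named in the report enter these differences.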

How the results depend on the processing

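Counts of members called higher and lower moved by over 1.5 times from the values of the report in the following cases. With all 6 groups in 1 fit, 3-MA in roots gave 3 higher and 11 lower, NaCl in leaves 4 lower, and control roots against leaves 19 lower. All genes called were then 3657 higher and 6610 lower with 3-MA in roots, against 6013 and 8866. Lower calls over all genes were 11396 with NaCl in leaves, against 8307, and 24118 for control roots against leaves, against 21071. With DESeq2, the tissue difference of the 3-MA response gave 4 higher and 18 lower, and with RLE factors 1 higher. All genes called were 5325 higher and 7492 lower with DESeq2 and 3210 higher with RLE factors, against 2714 and 5690 in the report. Scaling by library size alone gave 6 higher with NaCl in leaves, where 14880 of all genes were called higher, against 6348. For control roots against leaves, no filter on low counts gave 23 lower and the strict filter (1 CPM in 3 libraries) 6 lower. All genes called lower were 22786 without a filter and 18882 with the strict filter, against 21071. Members whose description starts with the family name, a smaller set by construction, gave 12 higher and 0 lower with NaCl in roots, 1 lower with 3-MA in roots, 10 higher and 0 lower with 3-MA in leaves, 1 higher and 0 lower with NaCl in leaves, and 1 higher and 5 lower for control roots against leaves. They gave 7 higher and 0 lower for the tissue difference of the NaCl response and 3 lower for that of the 3-MA response. The cause of the other moves was not tested.

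Leaving out each library in turn gave 7 to 13 higher and 8 to 20 lower with 3-MA in roots, 32 to 41 and 6 to 11 with NaCl in roots, 5 to 24 and 4 to 7 with 3-MA in leaves, 1 to 15 and 0 to 3 with NaCl in leaves, and 32 to 43 and 7 to 14 for control roots against leaves. It gave 7 to 21 and 1 to 3 for the tissue difference of the NaCl response and 0 to 4 and 5 to 22 for that of the 3-MA response. Calls over all genes moved as well, such as 4883 to 9537 lower with 3-MA in roots and 2267 to 8940 higher with 3-MA in leaves. Over the named members and all alternatives, 2954 values stayed called or not called as in the report, 206 lost the call and 73 gained one. No value called in the report turned its sign, whereas the sign of values not called was not followed.

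Deviations of same-numbered replicates correlated at -0.197 to 0.147 over the pairs of groups compared directly. For control roots and control leaves the values were 0.0372 to 0.144, against -0.135 to 0.0844 for unlike numbers. Roots and leaves of the treated groups were not compared in this way, so whether same-numbered roots and leaves share seedlings was not tested. With the replicate block, 3-MA in leaves gave 7 higher and 4 lower, and NaCl in leaves 1 lower. All genes called were then 2904 higher and 3881 lower with 3-MA in leaves, against 5472 and 6451. With NaCl in leaves 7584 were lower, against 8307. Library size alone shifted the median of all genes by 0.26 (NaCl in roots), 0.37 (NaCl in leaves), 0.15 (3-MA in leaves) and 0.73 (control roots against leaves) on the log2 scale. All genes called were then 20020 higher and 8640 lower, against 13507 and 12525, with NaCl in roots, and 14880 and 4750, against 6348 and 8307, with NaCl in leaves. They were 8204 and 4948, against 5472 and 6451, with 3-MA in leaves, and 37274 and 14657, against 25943 and 21071, for control roots against leaves.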

Other observations

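The table also holds 7 genes that the authors added to the annotation and whose domain entries name a chitinase, thaumatin or barwin family, outside the rule used for the report. Mean levels follow for 3-MA + NaCl, NaCl and control libraries (n = 3 each). A class I chitinase gene on chromosome 1B, 394637566 to 394639144, had 1.98 CPM in 3-MA + NaCl roots, 3.48 CPM in NaCl roots and 0.493 CPM in control roots, and 6.93 CPM in 3-MA + NaCl leaves, 0.215 CPM in NaCl leaves and 0.0315 CPM in control leaves. Its neighbour, 394507859 to 394509280, had 27.2 CPM in 3-MA + NaCl leaves, 10.0 CPM in NaCl leaves and 3.55 CPM in control leaves. A class I chitinase gene on chromosome 1D, 66763811 to 66765184, ran the other way in roots, with 1.198 CPM in 3-MA + NaCl roots, 3.20 CPM in NaCl roots and 4.49 CPM in control roots. A barwin gene on chromosome 3B, 811472009 to 811472859, had 1.67 CPM in 3-MA + NaCl roots, 0.354 CPM in NaCl roots and no count in control roots. A thaumatin gene on chromosome 5A, 485375298 to 485376767, had 3.72 CPM in 3-MA + NaCl roots, 1.78 CPM in NaCl roots and 0.297 CPM in control roots. Both genes whose entry also names a kinase domain were leaf genes, a chitinase gene on chromosome 7A with 5.41 CPM in 3-MA + NaCl leaves, 7.98 CPM in NaCl leaves and 14.9 CPM in control leaves and a thaumatin gene on chromosome 3D with 0.597 CPM in 3-MA + NaCl leaves, 4.59 CPM in NaCl leaves and 7.85 CPM in control leaves.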
